A study of Mus musculus with 14 samples.

Results

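Coenzyme Q synthesis was followed here in subcutaneous white adipose tissue (scWAT) of running and resting mice, through 10 genes chosen by symbol: Pdss1, Pdss2, Coq2, Coq3, Coq5, Coq6, Coq7, Coq8a, Coq9 and Coq10b. They were found through the platform's gene symbols. Of these, 9 had 1 or more probe sets (16 in all), among 18193 genes named on the array, and all 9 passed the filter on low signal, as did 12944 genes in all. Pdss1 was not analysed here. The samples were 7 arrays of exercised mice, which had a wheel cage for 11 days, and 7 arrays of sedentary mice. All mice were male C57BL/6, a common inbred strain, aged 12 weeks. The labels do not tie arrays to single animals, and p-values measure only the spread between these arrays, which may be technical. The comparison of the groups asked how voluntary running changed messenger RNA in this fat depot.

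Coenzyme Q, or ubiquinone, is a lipid of the inner mitochondrial membrane that takes electrons from complex I, complex II and several smaller dehydrogenases and hands them to complex III. It is made in mitochondria from a ring, which derives from tyrosine, and a long isoprenoid tail, which derives from the mevalonate pathway. Pdss1 and Pdss2 build the tail, Coq2 joins it to the ring, Coq3, Coq5, Coq6 and Coq7 modify the ring, and Coq8a and Coq9 assist the enzymes, while Coq10b binds the finished lipid and is needed for its normal use in respiration. Tissues rich in mitochondria, such as brown fat, heart and muscle, hold much of it.

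The start regions of 5 genes are shown because 4 of them, Coq8a, Coq9, Coq7 and Coq10b, rose with running in every fit that left out 1 array, while Coq2 had the smallest difference. Each run holds the 250 bases before and 50 bases after the annotated start, in the direction of transcription, from RefSeq (build GRCm38.p6), and 9 of the 10 genes had an entry, Coq5 being the exception. Capitals mark matches to 1 of 8 motifs searched on both strands.
Coq8a: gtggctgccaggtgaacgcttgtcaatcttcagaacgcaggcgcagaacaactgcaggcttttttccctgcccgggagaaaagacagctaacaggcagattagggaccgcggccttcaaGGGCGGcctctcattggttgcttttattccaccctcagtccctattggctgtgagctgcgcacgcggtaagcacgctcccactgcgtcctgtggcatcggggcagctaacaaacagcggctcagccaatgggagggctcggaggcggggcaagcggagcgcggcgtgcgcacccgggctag
Coq9: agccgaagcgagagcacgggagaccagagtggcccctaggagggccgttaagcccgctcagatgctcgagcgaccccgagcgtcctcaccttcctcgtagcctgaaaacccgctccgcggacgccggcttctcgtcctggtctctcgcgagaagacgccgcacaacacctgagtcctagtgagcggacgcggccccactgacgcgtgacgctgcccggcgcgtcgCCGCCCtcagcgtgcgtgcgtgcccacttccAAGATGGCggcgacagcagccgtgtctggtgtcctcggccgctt
Coq7: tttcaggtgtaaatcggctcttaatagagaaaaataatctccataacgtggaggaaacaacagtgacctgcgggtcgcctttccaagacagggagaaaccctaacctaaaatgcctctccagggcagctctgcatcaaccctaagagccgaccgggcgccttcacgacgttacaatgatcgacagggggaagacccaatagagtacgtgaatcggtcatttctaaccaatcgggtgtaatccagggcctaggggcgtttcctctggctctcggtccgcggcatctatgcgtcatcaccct
Coq10b: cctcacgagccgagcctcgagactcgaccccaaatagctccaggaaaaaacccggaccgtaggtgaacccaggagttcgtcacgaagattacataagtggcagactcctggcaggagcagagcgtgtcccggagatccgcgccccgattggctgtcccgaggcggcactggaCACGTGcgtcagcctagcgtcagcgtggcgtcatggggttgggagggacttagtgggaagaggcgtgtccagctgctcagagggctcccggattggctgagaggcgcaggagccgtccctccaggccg
Coq2: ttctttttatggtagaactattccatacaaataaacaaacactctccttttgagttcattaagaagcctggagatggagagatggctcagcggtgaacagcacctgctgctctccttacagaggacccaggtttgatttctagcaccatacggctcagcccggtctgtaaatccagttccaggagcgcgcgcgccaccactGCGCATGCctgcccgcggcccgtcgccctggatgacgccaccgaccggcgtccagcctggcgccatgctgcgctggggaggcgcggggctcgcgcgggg

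These windows lie at chr1:180195971-180196270 (minus strand, Coq8a), chr8:94838163-94838462 (plus strand, Coq9), chr7:118533307-118533606 (minus strand, Coq7), chr1:55052520-55052819 (plus strand, Coq10b) and chr5:100674207-100674506 (minus strand, Coq2). Coq8a has another annotated start, at chr1:180193436-180193735, whose window held no match, and the array does not tell the starts apart. The motifs were GGGCGG (SP1), AAGATGGC (YY1), CACGTG (E-box), GCATGCGC (NRF1), CCGGAAGT (ETS/GABPA), AAGGTCA (core of the element bound by estrogen-related receptors), TGACGTCA (cAMP response element) and TTACGTAA (D-box). No matches overlapped each other. The Coq9 window held GGGCGG on the opposite strand 25 bases before the start and AAGATGGC just after it. In Coq8a GGGCGG lay 131 bases before the start, and in Coq10b CACGTG lay 78 bases before it. The Coq2 window held GCATGCGC on the opposite strand 49 bases before the start, and the Coq7 window held none of the 8. Of all 32851 windows in the table, 35.7% held GGGCGG, 2.75% AAGATGGC, 7.15% CACGTG and 2.71% GCATGCGC. The shares were 3.89% for CCGGAAGT, 4.72% for AAGGTCA, 1.79% for TGACGTCA and 0.119% for TTACGTAA. The 5 sequences thus shared no single motif of this set, and a match is a description of letters, not of binding.

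Sedentary arrays 5 and 7 stood somewhat apart, with a mean correlation to their own group of 0.894 and 0.897, where the other 12 arrays had 0.934 to 0.952.

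Running was accompanied by higher messenger RNA for much of the pathway. Of the 9 genes tested, 5 rose by limma at an adjusted p under 0.05 (Coq8a, Coq9, Coq10b, Coq7 and Coq3) and 0 fell. Over all 12944 genes tested, 5.53% passed in either direction, 4% higher and 1.53% lower, a split that moved when arrays were centred on their medians (518 higher and 198 lower as reported, 547 and 86 after centring). At an unadjusted p under 0.05, 8 of the 9 were higher, against 11.3% of all genes. Each of the 9 had a positive difference (median 0.52 on the log2 scale), where 45% of all genes tested had a positive difference and the median was -0.03. Differences are exercised minus sedentary on the log2(signal + 46.7) scale, which understates changes of weak genes. Signal is the array's linear brightness value, and it is compared between arrays for one gene, never between genes.

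**Figure D1:**
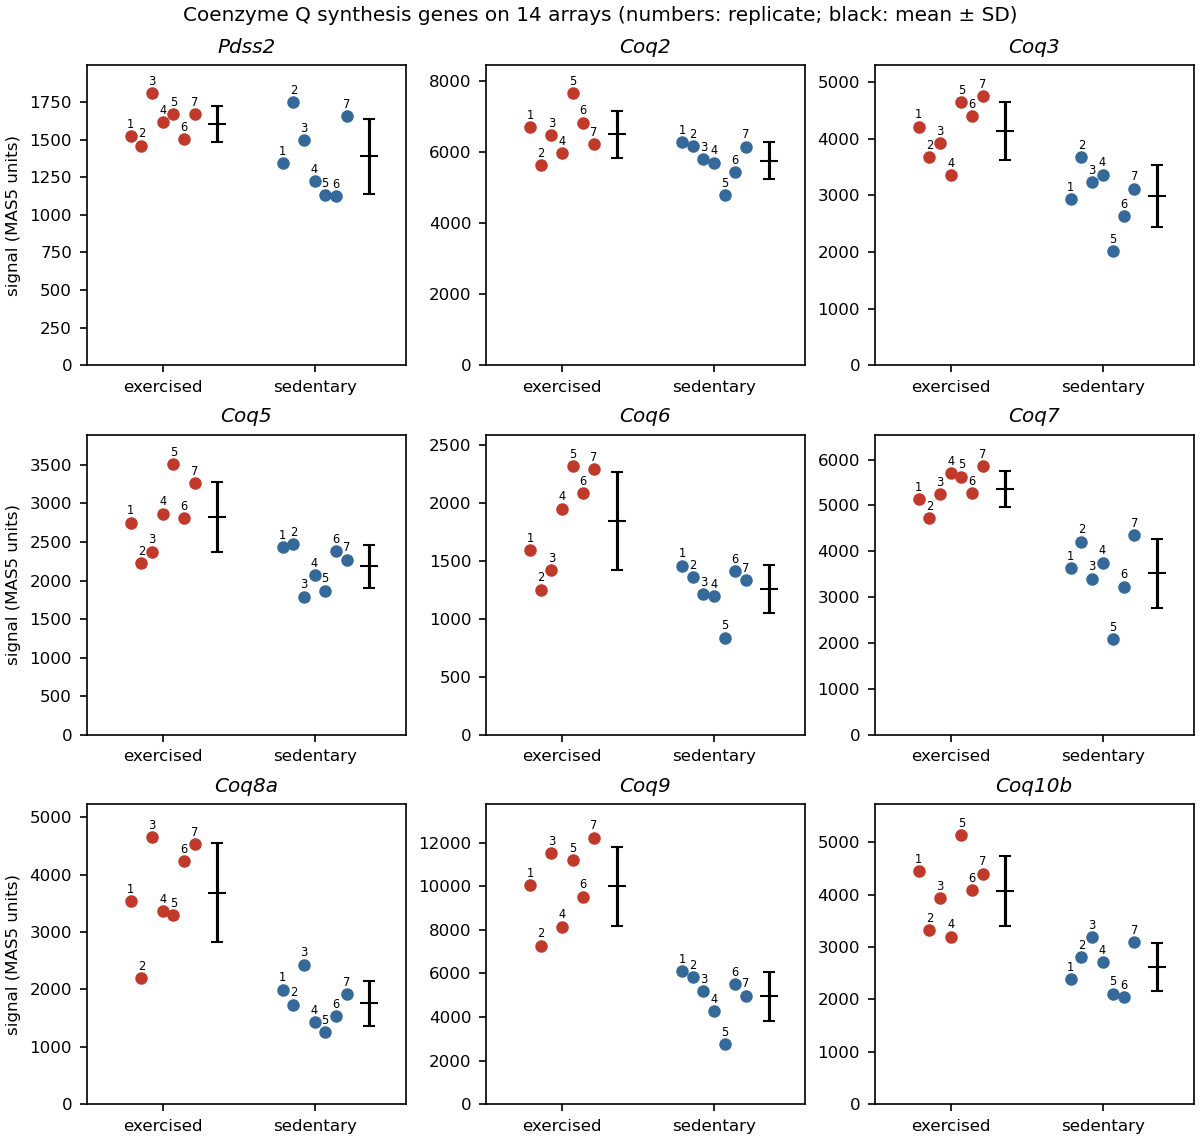
Signal (MAS5 units, linear axis from 0) of the 9 coenzyme Q synthesis genes on each of the 7 exercised (red) and 7 sedentary (blue) arrays, numbered by replicate, with the mean and SD of each group in black. For Coq7, Coq9 and Coq10b every exercised array lies above every sedentary array, while the groups of the other 6 genes overlap.

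Among the genes that assist the enzymes, Coq8a encodes a kinase-like protein of the inner membrane that keeps the complex of synthesis enzymes working. Its signal on exercised arrays had a lowest value of 2189, a median of 3540.4 and a highest value of 4652, against 1253, 1732 and 2428 on sedentary arrays. Exercised array 2 was the only one below a sedentary array, sedentary array 3, and the other 6 lay above all 7 sedentary values. Coq8a rose by 1.04 (SE 0.17, 95% confidence interval 0.68 to 1.40, limma adjusted p = 0.00322), a 2.06-fold difference on this scale. Coq9 encodes a lipid-binding protein that partners the hydroxylase Coq7. Its signals ran from 7280.1 through a median of 10062 to 12235 on exercised arrays, and from 2741 through 5201 to 6096 on sedentary arrays, with no overlap. Coq9 rose by 1.03 (SE 0.17, interval 0.67 to 1.38, adjusted p = 0.00309), or 2.04-fold. Non-overlap in the upward direction was seen in 1.95% of all genes tested and in 3 of these 9. Both genes have another probe set of low signal that did not pass. For Coq8a it averaged 520.8 ± 177.5 in exercised and 389.7 ± 129.9 in sedentary tissue (SD, n = 7 each), with a difference of 0.39 (SE 0.22, adjusted p = 0.34 over all probe sets). For Coq9 it averaged 457.7 ± 61.3 in exercised and 405.7 ± 40.5 in sedentary tissue, with a difference of 0.15 (SE 0.12, adjusted p = 0.488). When a gene's probe sets were averaged, the Coq9 difference was 0.59 (SE 0.10, adjusted p = 0.004004) and that of Coq8a 0.71 (SE 0.17, adjusted p = 0.0274).

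Coq7, which encodes the hydroxylase that acts near the end of ring modification, had exercised signals with a lowest value of 4719, a median of 5270.5 and a highest value of 5849.8. On sedentary arrays the same values were 2083, 3638 and 4352, so that the groups did not overlap. The gene rose by 0.63 (SE 0.13, interval 0.35 to 0.91, adjusted p = 0.0118). Coq3, the methyltransferase that acts on the oxygen atoms of the ring, ranged from 3362 (median 4216) to 4754 on exercised and from 2009 (median 3118) to 3676 on sedentary arrays. Of its exercised values 5 lay above every sedentary value and the other two, arrays 2 and 4, lay within the sedentary range. It rose by 0.47 (SE 0.12, interval 0.21 to 0.73, adjusted p = 0.0356), a call near the threshold. Without exercised array 1, 3, 5, 6 or 7, or without sedentary array 1 or 6, its adjusted p was 0.0669, 0.0604, 0.0755, 0.0704, 0.0796, 0.0588 and 0.0669 in that order. Another probe set of Coq3 differed by 0.26 (SE 0.14, adjusted p = 0.333 over all probe sets). Coq3 did not pass with its probe sets averaged (0.37, SE 0.12, adjusted p = 0.0823) or with the Gapdh 3'/5' signal ratio, a measure of RNA quality, as a covariate (0.45, SE 0.14, adjusted p = 0.103).

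Coq6 and Coq5, which encode a hydroxylase and a carbon methyltransferase of the ring, did not pass the threshold. Coq6 signals had a lowest value of 1250.2, a median of 1949.5 and a highest value of 2313 on exercised arrays, against 837.6, 1332 and 1456 on sedentary arrays. On 5 exercised arrays Coq6 lay above all sedentary values, and on arrays 2 and 3 it did not. The difference was 0.52 (SE 0.15, interval 0.19 to 0.85, adjusted p = 0.0603). For Coq5 the exercised signals ran from 2224 (median 2806) to 3506 and the sedentary ones from 1790.4 (median 2272) to 2469. Here too 5 exercised arrays were above the sedentary range, with arrays 2 and 3 inside it. The difference was 0.36 (SE 0.11, interval 0.13 to 0.59, adjusted p = 0.0696), and another probe set gave 0.37 (SE 0.12, adjusted p = 0.106 over all probe sets). Without exercised array 2 both genes passed, Coq6 with 0.60 (SE 0.14, adjusted p = 0.0248) and Coq5 with 0.41 (SE 0.11, adjusted p = 0.0374). This was the only 1 of the 14 fits leaving out 1 array in which either passed. In the others the limma adjusted p reached 0.126 for Coq6 and 0.141 for Coq5.

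Coq2 and Pdss2 had the smallest differences of the 9 genes, which were not tested against each other. Coq2, the transferase that joins tail and ring, had exercised signals from 5639.9 through a median of 6491 to 7663, and sedentary signals from 4786 through 5815 to 6297.5. On 4 exercised arrays it exceeded the highest sedentary value. Its difference was 0.17 (SE 0.08, interval 0.00090 to 0.34, adjusted p = 0.226). Pdss2, a subunit of the enzyme that builds the tail, ran from 1462 through 1618 to 1808 on exercised and from 1125 through 1345 to 1749 on sedentary arrays. Only exercised array 3 exceeded the sedentary range, although all 7 exercised values were above the sedentary median. The difference was 0.22 (SE 0.11, interval -0.01 to 0.44, adjusted p = 0.241). A further 2 probe sets of Pdss2, with mean signals of 203.6 and 48.7 over the 14 arrays, were below the filter of 389.8.

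Coq10b, whose product binds coenzyme Q after its synthesis, had a lowest exercised signal of 3201, a median of 4090.2 and a highest of 5132, against 2043, 2707 and 3195 on sedentary arrays. The groups were separated by a narrow gap, between exercised array 4 and sedentary array 3. Coq10b rose by 0.63 (SE 0.13, interval 0.36 to 0.90, adjusted p = 0.00986). Its other probe set averaged 2587 ± 429.9 in exercised and 1491 ± 116.0 in sedentary tissue (n = 7 each) and rose by 0.76 (SE 0.10, adjusted p = 0.00152 over all probe sets, of which 3.83% were called). This was the only one of 5 other probe sets tested that passed, and all 5 differences were positive.

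**Figure D2:**
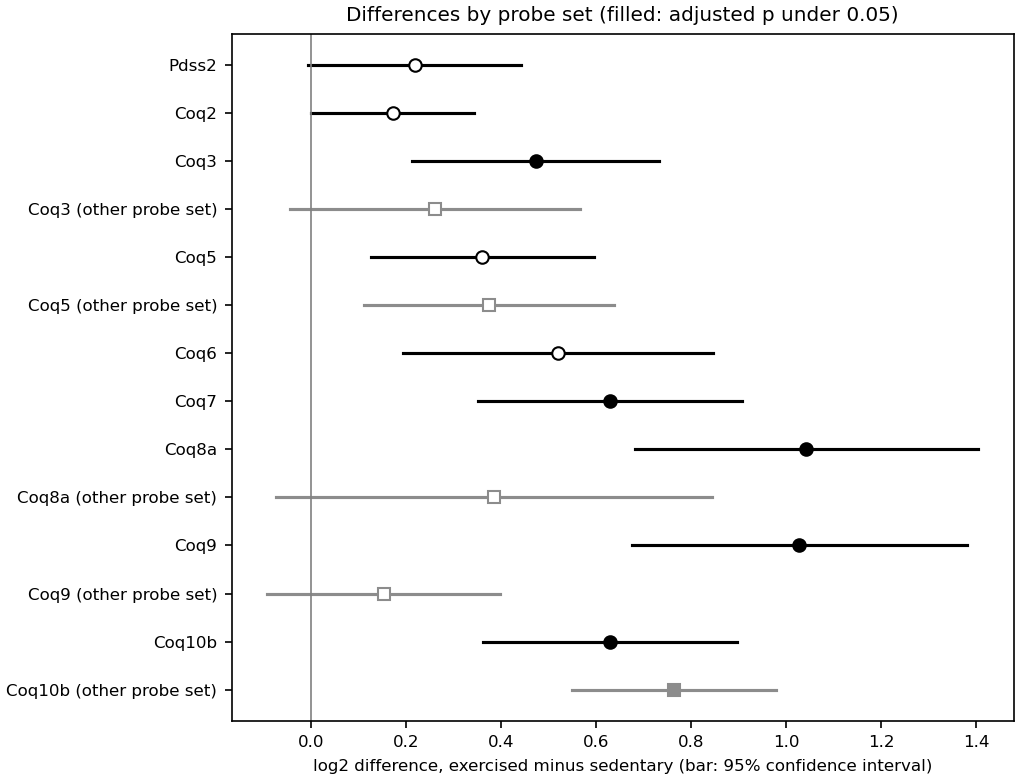
Log2 difference, exercised minus sedentary, with its 95% confidence interval for the main probe set of each gene (black circles) and for other probe sets that passed the filter (grey squares); filled symbols have an adjusted p under 0.05. Coq8a and Coq9 lie near 1, Pdss2 and Coq2 near 0.2, and all values are positive.

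Within the groups, the levels of the 9 genes were positively correlated from array to array. With group means subtracted, Pearson correlations over the 14 arrays were positive for all 36 pairs, from 0.21 for Coq5 with Coq8a to 0.87 for Coq5 with Coq6, with a median of 0.59. The share of positive pairs over all genes is not given here, so this cannot be called a trait of these genes. All pairs include sedentary array 5, which was the lowest of all 14 arrays for 6 of the 9 genes. Exercised array 2 was the lowest exercised array for 7. The highest value of a gene was always on exercised array 3, 5 or 7. Averaged over the 9 genes, the log2 deviation from the sedentary mean ran from 0.24 (array 2) to 0.75 (array 7) on exercised arrays and from -0.45 (array 5) to 0.20 (array 2) on sedentary arrays. Outside the pathway, the genes whose levels followed this average most closely after the group means were subtracted were Mrpl2 (Pearson's r = 0.96, Spearman's rho = 0.92), Nubpl (0.95 and 0.85), Ndufs7 (0.95 and 0.87), Smpd1 (0.94 and 0.94) and Mtres1 (0.94 and 0.83). Mrpl2 is a protein of the mitochondrial ribosome, Nubpl an assembly factor and Ndufs7 a subunit of complex I, Smpd1 the lysosomal acid sphingomyelinase and Mtres1 a mitochondrial RNA-binding protein. These values rest on 14 arrays that share tissue and scaling, and without sedentary array 5 the r values were 0.93, 0.92, 0.89, 0.88 and 0.88 in the same order. Of these genes Mrpl2 (0.37, adjusted p = 0.0385), Ndufs7 (0.58, adjusted p = 0.0156) and Mtres1 (0.53, adjusted p = 0.0272) also rose with running, whereas Nubpl differed by 0.20 (adjusted p = 0.404) and Smpd1 by 0.04 (adjusted p = 0.853).

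The mevalonate pathway supplies the tail. Of its 9 listed genes 7 were tested, 0 rose and 0 fell by limma and by the exact permutation test, and 0 had an unadjusted p under 0.05. Among so few genes a count of 0 is near the 5.53% called over all genes, and the list was not tested against the synthesis genes. The median difference was 0.02, with a range from -0.20 to 0.33. Hmgcs1, which makes the precursor of mevalonate, averaged 29755 ± 4709 in exercised and 24297 ± 7032 in sedentary tissue (n = 7 each) and differed by 0.33 (SE 0.17, adjusted p = 0.276). Mvd, which forms the first isoprenoid unit, differed by -0.20 (SE 0.15, adjusted p = 0.474). Among 10 genes of other isoprenoid products, such as sterols, dolichol and lipid anchors of proteins, 0 passed by either test and 1 was lower at an unadjusted p under 0.05 (median 0.10). That gene was Sqle, the squalene epoxidase of sterol synthesis, at -0.50 (SE 0.16, adjusted p = 0.0883). Fnta, a subunit of protein farnesyltransferase, differed by 0.15 (SE 0.09, adjusted p = 0.355). On the tyrosine side 4 of 7 listed genes were tested and 1 rose. This was Aldh9a1, an aldehyde dehydrogenase that also serves carnitine synthesis, at 0.47 (SE 0.08, adjusted p = 0.00469), and with probe sets averaged 0 of the 4 passed.

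Of 12 tested genes that are related to the synthesis set or cooperate with it, 1 rose and 0 fell, and 11 had a positive difference (median 0.27). An unadjusted p under 0.05 was reached by 7 upward and 1 downward. Over all genes tested 5.53% were called, 11.3% were higher at an unadjusted p under 0.05 and 45% had a positive difference. Among so few genes a count of 1 called is near that share, and the list was not tested. The gene that rose was Coq10a, the paralogue of Coq10b, with 2248 ± 428.4 in exercised and 1517 ± 303.7 in sedentary tissue (n = 7 each), a difference of 0.56 (SE 0.14, adjusted p = 0.0318). It did not pass as the mean of its probe sets, with muscle markers in the fit or by the exact permutation test, where 0 of the 12 passed. Coq4, a further protein of the synthesis complex, differed by 0.21 (SE 0.13, adjusted p = 0.357), and Coq8b, the paralogue of Coq8a, by 0.24 (SE 0.13, adjusted p = 0.299); both were picked after their values were seen. The difference between Coq8a and Coq8b was not tested.

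Enzymes that use coenzyme Q rose alongside. Of 13 genes listed for dehydrogenases that pass electrons to it, 7 rose and 0 fell (median 0.49). Every complex II subunit in the list was among the 7, so these were not 7 separate enzymes. Gpd2, the mitochondrial glycerol-3-phosphate dehydrogenase, averaged 11841 ± 2595 in exercised and 4321 ± 1558 in sedentary tissue and rose by 1.49 (SE 0.22, adjusted p = 0.00228). Etfdh, which brings in electrons from fatty acid oxidation, rose by 1.05 (SE 0.17, adjusted p = 0.00342). The complex II subunits Sdhb (0.60, SE 0.11, adjusted p = 0.00526) and Sdha (0.49, SE 0.10, adjusted p = 0.0101) rose as well. In complex I 9 of 9 subunits tested rose (median 0.58), among them Ndufv2 (0.67, SE 0.07), Ndufs1 (0.78, SE 0.11), Ndufa9 (0.61, SE 0.11) and Ndufb5 (0.50, SE 0.09). In complex III, which takes electrons from the reduced lipid, 10 of 11 genes rose (median 0.61), among them Uqcrfs1 (0.95, SE 0.14), Uqcr10 (0.62, SE 0.09), Uqcrc2 (0.80, SE 0.13) and Uqcrc1 (0.66, SE 0.12). The median of the 9 synthesis genes, 0.52, lies near those of the enzymes that use the lipid, and the lists were not tested against each other. Of 13 regulators of mitochondrial genes 4 rose and 0 fell: Ppara (1.76, SE 0.24), Esrra (0.73, SE 0.11), Ppargc1b (0.98, SE 0.21) and Ppargc1a (1.10, SE 0.28). With muscle marker level in the fit, 3 of the dehydrogenase genes, 5 of complex I, 6 of complex III and 2 of the regulators rose. Over all 12944 genes that fit called 183 higher and 39 lower, where the fit without it called 518 and 198.

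**Figure D3:**
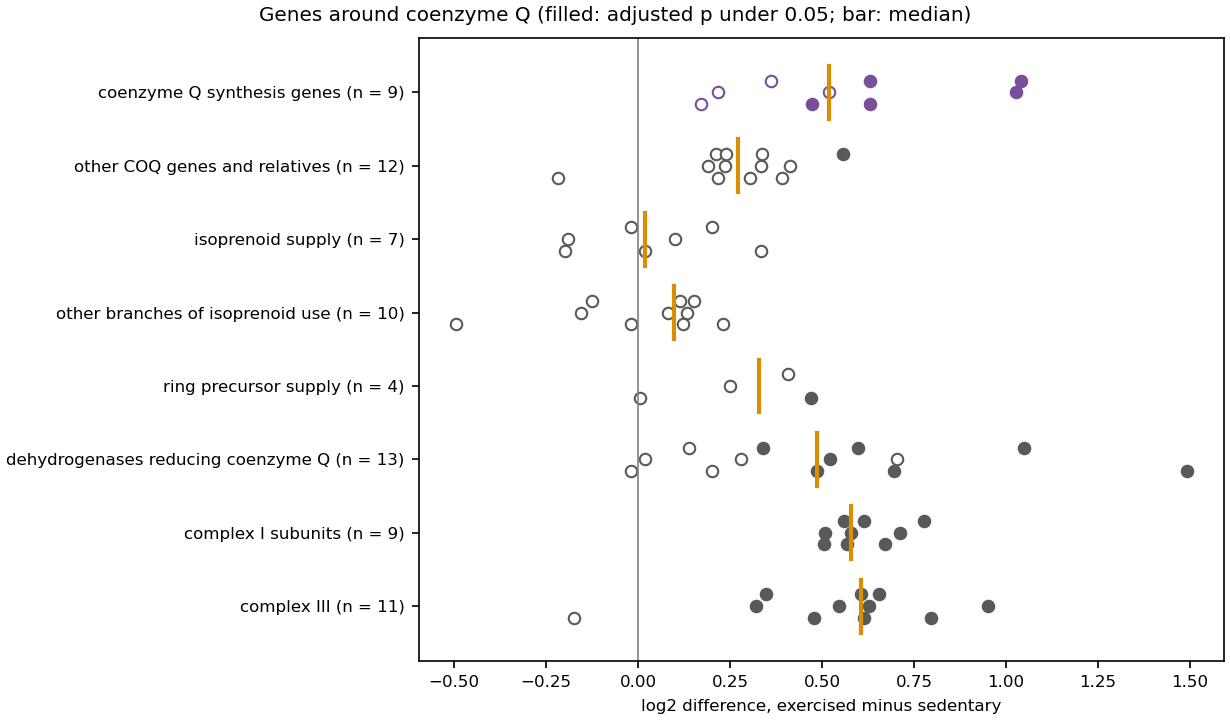
Log2 difference, exercised minus sedentary, of each gene tested in 8 gene groups around coenzyme Q; filled points have an adjusted p under 0.05 and the bar is the group's median. The synthesis genes have a median of 0.52, complex I 0.58, complex III 0.61 and isoprenoid supply 0.02.

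Markers of other cell types differed between arrays. Of 20 skeletal muscle markers tested (23 listed), all had positive differences (median 2.86) and 15 were higher at an unadjusted p under 0.05, while 0 passed by limma or by the exact permutation test. Their mean log2 level ran from 8.65 to 15.22 on exercised and from 8.23 to 13.12 on sedentary arrays, and Ckm, muscle creatine kinase, from 479.8 to 64891 on exercised and from 295.8 to 29757 on sedentary arrays. With this mean as a covariate Coq8a rose by 0.89 (SE 0.19, adjusted p = 0.0356), Coq9 by 0.94 (SE 0.20, adjusted p = 0.0311) and Coq7 by 0.67 (SE 0.16, adjusted p = 0.0468). Coq10b then differed by 0.61 (SE 0.15, adjusted p = 0.063) and Coq3 by 0.44 (SE 0.15, adjusted p = 0.172). The exercised arrays lowest in muscle markers, 1 and 4 (8.86 and 8.65), had Coq9 signals of 10062 and 8152 and Coq8a signals of 3540.4 and 3357, above all sedentary arrays. The highest Coq8a signals, 4652, 4522.8 and 4232.7, were on exercised arrays 3, 7 and 6, with muscle means from 13.83 to 15.22. Exercised array 2, also high in muscle markers (14.04), had the lowest exercised Coq8a signal, 2189. For Coq3 exercised array 4 was the lowest of its group (3362.4), below sedentary arrays 2 and 4. Its Coq10b signal, 3201, was also the lowest exercised one, just above sedentary array 3 (3194.9). On exercised array 1 both genes lay above all sedentary values. Sedentary array 3, highest of its group in muscle markers (13.12), also had the highest sedentary signals of Coq8a (2428) and Coq10b (3195), while its Coq9 signal, 5201, was the sedentary median. The part of muscle RNA in these differences was not tested beyond these values. Exercised array 2, the lowest of its group for most synthesis genes, had a high muscle mean of 14.04 and the lowest exercised Ucp1 signal, 10273. Ucp1, the uncoupling protein of brown and beige fat, otherwise ran up to 51866.5 on exercised arrays and from 67.3 to 9989 on sedentary arrays. Of 10 brown and beige markers 6 rose (median 2.14), and their part in the differences of the synthesis genes was not tested.

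Of 12 adipocyte markers listed, 9 were tested. Their mean log2 level was 14.54 ± 0.17 in exercised and 14.43 ± 0.45 in sedentary tissue (n = 7 each), and 1 of 9, Slc2a4, rose. At an unadjusted limma p under 0.05, 4 were higher, Slc2a4 included, and 1 was lower. The lower one was Lep, at -1.41 (SE 0.48, limma adjusted p = 0.105). Sedentary array 5, lowest for most synthesis genes, had the lowest adipocyte mean, 13.51, and the highest macrophage mean, 13.54. In bulk tissue fewer cells of a type and less RNA per cell cannot be told apart. With the adipocyte mean as a covariate, chosen after the data were seen, 7 of the 9 synthesis genes rose, Coq9 by 0.94 (SE 0.10, adjusted p = 0.000201), with Coq6 (0.45, adjusted p = 0.0224) and Coq5 (0.32, adjusted p = 0.0445) added. Without sedentary arrays 5 and 7 the same 5 genes as reported rose, Coq9 by 0.88 (SE 0.13) and Coq8a by 0.98 (SE 0.18). All 10 macrophage markers had negative differences (median -0.24) and 1 fell (Tyrobp), and all 8 lymphocyte markers had negative differences (median -0.62). The lymphocyte mean varied widely within groups, from 8.45 (array 5) to 12.11 (array 4) on exercised arrays. On sedentary arrays it ran from 8.56 (array 7) to 12.82 (array 5). Of 6 markers of mammary epithelium 1 fell by limma (Epcam) and 0 by the exact permutation test, while 0 passed among 8 lymphocyte, 8 endothelial, 7 fibroblast and progenitor and 2 red blood cell markers; the genes named here were picked after their values were seen. At an unadjusted p under 0.05 those last lists had 0, 0, 1 (lower) and 0 genes, and by the exact permutation test 0 in each.

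**Figure D4:**
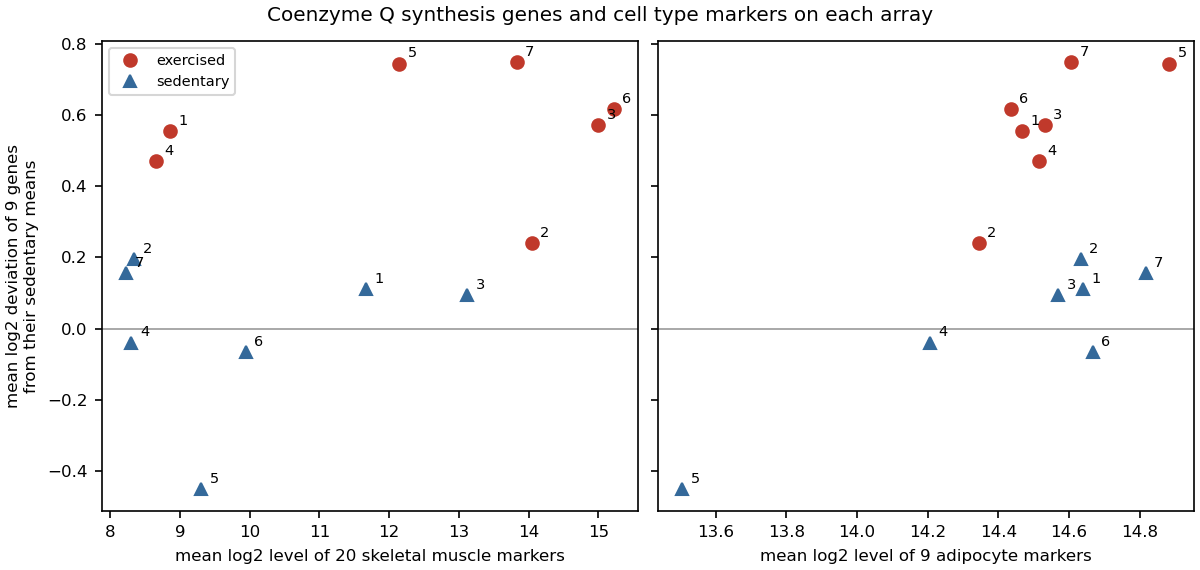
Mean log2 deviation of the 9 synthesis genes from their sedentary means (y axis) against the mean log2 level of 20 skeletal muscle markers (left) and 9 adipocyte markers (right) on each array, numbered by replicate. Exercised arrays (red circles) lie between 0.24 and 0.75 at muscle means from 8.65 to 15.22, and sedentary array 5 stands apart at the lowest adipocyte mean, 13.51.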

How the data were processed

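Biotinylated cRNA was prepared from total RNA of frozen fat and read on Affymetrix arrays, per the labels. The authors deposited signal intensity on a linear scale; the submitters' processing notes name MAS5, without version or settings, for 45101 probe sets on 14 arrays. The 2% trimmed mean was 1500.01 on every array, and array medians were 531.3 to 617.4. The number of arrays limits the precision.

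Symbols were updated through Entrez identifiers with RefSeq genes of GRCm38.p6 (34741 of 34945 probe sets with 1 symbol; 932 had several and 9160 none). Values were taken as log2(signal + 46.7), the 10th percentile, leaving out 64 control probe sets and those whose mean fell short of 389.8 (40th percentile). The probe set of highest mean stood for each of 12944 genes. Tests used limma 3.58.1 (R 4.3.3; trend, two-sided, Benjamini-Hochberg over all genes); the exact permutation test used all 3432 assignments, with a smallest p of 0.000583. Code was tested on simulated data.

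The genes, lists and tests were chosen with earlier results of these data known. Named were the 9 measured genes, up to 4 called genes of each list with the smallest p (or 2 where none was called), Ucp1, Ckm, and the 5 genes most like the average of the 9.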

Additional observations from a re-analysis of the deposited data

Results flagged for a closer look

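Sedentary array 5 lay far below the other 6 sedentary arrays for 2 of the 9 genes. Its Coq6 signal was 837.6, a gap to the next array of 0.635 of the group's log2 range, and its Coq7 signal was 2083.1, a gap of 0.593, both above Dixon's 95% critical value for 7 samples. Each of the 9 genes was examined in both groups, 18 sets of values, of which chance alone would flag about 0.9. The sets share the same arrays and the genes were correlated. The 2 flags, both on sedentary array 5, are therefore not 2 separate findings. Without sedentary arrays 5 and 7 Coq7 rose by 0.55 (SE 0.08, adjusted p = 0.00259) and Coq6 differed by 0.43 (SE 0.15, adjusted p = 0.108).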

How the results depend on the processing

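All 9 differences stayed positive in all 32 alternatives, and of 288 values 14 lost and 4 gained the threshold. Coq8a and Coq9 passed in 32 of 32, Coq7 in 31, Coq10b in 30 and Coq3 in 21. Coq5 and Coq6 passed in 2 each, and Coq2 and Pdss2 in 0. The number of synthesis genes that rose was 4 to 7 when 1 array was left out. Of the 18 other alternatives 16 gave 4 to 7, the muscle covariate gave 3 and the replicate block 2. The number of all genes called, 716, was 222 with the muscle covariate, 399 with the Gapdh 3'/5' ratio as a covariate, 1292 with the adipocyte covariate added later, and 402 to 853 when 1 array was left out; exercised arrays 1 (424), 3 (410), 5 (412), 6 (477) and 7 (402) lowered it most. With group means subtracted, same-numbered arrays of the 2 groups correlated from -0.43 to 0.38, and 3 of 7 matched best with their own number. Whether the numbers pair the arrays cannot be told from so few pairs. With the replicate block 161 genes passed, Coq8a and Coq9 (2 synthesis genes) among them. With probe sets averaged, 0 genes of the tyrosine side (Aldh9a1 included) and 0 relatives rose. The causes were not tested.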
